A study of Mus musculus with 17 samples.

Results

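The proteasome genes of the mouse heart were measured in RNA from the apex of the left ventricle after pressure overload, with and without an integrin ligand. Members were the protein-coding genes whose symbol begins with Psma, Psmb, Psmc, Psmd, Psme, Psmf or Psmg followed by a digit, which gave 49 of the 21798 genes in the table. Of these, 48 encode subunits, activators, assembly factors or an inhibitor of the proteasome, and Psmc3ip, a meiotic recombination cofactor, was matched by its symbol alone. Psmb11, the thymus-specific subunit, was not analysed here. All 49 passed the filter on low values, a CPM (read count scaled to a fixed library total) of at least 0.5 in at least 3 libraries, as did 16218 genes in all.

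Male C57Bl6/J mice underwent transverse aortic constriction (TAC), which narrows the aorta and overloads the left ventricle, or a Sham operation, and hearts were taken 3 weeks later. The animals received 29P, an RGD mimetic that binds the αvβ3 integrin, at 50 µg/kg by oral gavage, or vehicle (Veh). There were 5 libraries of Sham Veh, 3 of Sham 29P, 3 of TAC Veh and 6 of TAC 29P, and each library is named by its number in the labels. The study had removed a further Veh TAC library because it clustered with Sham samples. The TAC Veh group was thus in part chosen by its distance from Sham, which can enlarge that contrast and narrow its spread. As these are bulk samples, fewer cells of a type and less RNA per cell cannot be told apart.

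The proteasome is the large protease that degrades ubiquitin-tagged proteins. Its barrel, the 20S core, holds outer rings of alpha subunits, which gate the entrance, and inner rings of beta subunits, of which Psmb5, Psmb6 and Psmb7 carry the cutting sites. The 19S regulatory particle caps the barrel: its base contains the AAA ATPases (Psmc1 to Psmc6) that unfold substrates, and its lid removes the ubiquitin chain. Interferon signalling induces Psmb8, Psmb9 and Psmb10, which replace Psmb5, Psmb6 and Psmb7 in newly built cores to form the immunoproteasome, known for making peptides for MHC class I. Alternative caps are the 11S activators (Psme1 with Psme2, and Psme3) and PA200 (Psme4). In heart muscle the proteasome turns over sarcomere and damaged proteins, and the transcription factor Nrf1 (Nfe2l1) is known to raise subunit genes together when proteasome capacity falls short.

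Promoter stretches are shown for the constitutive catalytic genes Psmb5 and Psmb6 and the inducible Psmb8, whose windows hold different motifs. Promoter windows of RefSeq (GRCm38.p6, 250 bases before to 50 after the start) were found for 41 of the 49 members, and both strands were searched. The core of the antioxidant response element, TGACNNNGC, which Nrf1 and Nrf2 bind, matched in 6 of these 41 (14.6%) and in 13.99% of 27025 genes with a window. It was present in Psmb5 and Psmb6, the constitutive catalytic genes with a window, and in none of Psmb8, Psmb9 and Psmb10. The STAT core TTCNNNGAA matched in 3 of 41 members (7.32%) and in 9.55% of all genes, and Psmb8 held it. The interferon regulatory core GAAANNGAA matched in 7 of 41 members (17.1%) against 9.76% of all genes, and none of these were immunoproteasome catalytic genes. CCAAT, the CCAAT box, matched in 14 of 41 members (34.1%) and 41.1% of all genes, and in 5 of the 7 alpha ring genes. A match is a description of letters, not a binding site. The stretches below run 5′ to 3′ on the gene's strand, with the match in capitals.
Psmb5: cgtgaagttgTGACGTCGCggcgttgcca
Psmb6: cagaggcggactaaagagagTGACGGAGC
Psmb8: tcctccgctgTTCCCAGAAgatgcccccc
The Psmb5 stretch lies at chr14:54618024-54618052 on the minus strand, with its match from 47 to 39 bases before the start. That of Psmb6 lies at chr11:70525328-70525356 on the plus strand, with its match from 9 to 1 bases before the start. That of Psmb8 lies at chr17:34198088-34198116 on the plus strand, with its match from 97 to 89 bases before the RefSeq start, which lies inside the GENCODE gene.

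The position of the inducible genes matters for what could be counted. Psmb8 (chr17:34197721-34201454, plus strand, GENCODE vM21 on mm10) and Psmb9 (chr17:34181987-34187764, minus strand) lie in the MHC region on either side of Tap1, the peptide transporter gene, and Psmb9 and Tap1 overlap by 212 bases on opposite strands. Psmb10 lies on chromosome 8 (105935735 to 105938444, minus strand). In all, 19 members overlap a gene on the opposite strand, and the strand setting of the counting is not given in the sources used here, so reads in such overlaps cannot be assigned. Psme2 and its intronless copy Psme2b share near-identical sequence, and their values are uncertain for that reason.

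Depth, estimated from the step between low values, was 14.2 to 23.8 M reads per library, and the members took 0.250 to 0.333% of the deposited total. Sham 29P library 14 was the shallowest, had the largest mitochondrial share (40.0%, against 23.6 to 38.8% elsewhere) and held the lowest value of 31 of the 49 members. The atrial genes Myl7, Sln and Myl4 were abundant in Sham Veh libraries 19 and 20 and TAC 29P library 18 alone, and in the other 14 libraries the summed level of the 4 atrial markers was 0.353 to 5.75 CPM.

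Levels were compared between genes per kilobase of annotated exon, and in the Sham Veh hearts the core and cap genes spanned more than an order of magnitude. The highest was Psma6, an alpha ring subunit, at 86.7 ± 7.32 CPM per kb (SD, n = 5), followed by Psmc3, a 19S ATPase, at 68.6 ± 4.02 CPM per kb. Constitutive catalytic subunits were close to each other: Psmb5 stood at 46.2 ± 4.99, Psmb7 at 38.7 ± 1.61 and Psmb6 at 35.0 ± 2.63 CPM per kb. Immunoproteasome genes were lower, with Psmb10 at 13.03 ± 2.19, Psmb8 at 4.31 ± 0.367 and Psmb9 at 1.78 ± 0.575 CPM per kb, ranks 31, 42 and 45 of 49. Psme4 (PA200), which opens the barrel without ATP, stood at 30.8 ± 5.48 CPM per kb, and Psme3 at 13.8 ± 2.19. Assembly factors, which act only while a proteasome is built, ranged from 1.48 ± 0.176 (Psmg3) to 9.99 ± 0.854 CPM per kb (Psmg2). Psma8, a testis-type alpha subunit, was the lowest at 0.309 ± 0.0722 CPM per kb. Neighbours in this order often did not differ beyond their spread, as with Psmb7 and Psmb2 (38.8 ± 2.55), and lengths count every annotated exon, retained introns included.

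**Figure D1:**
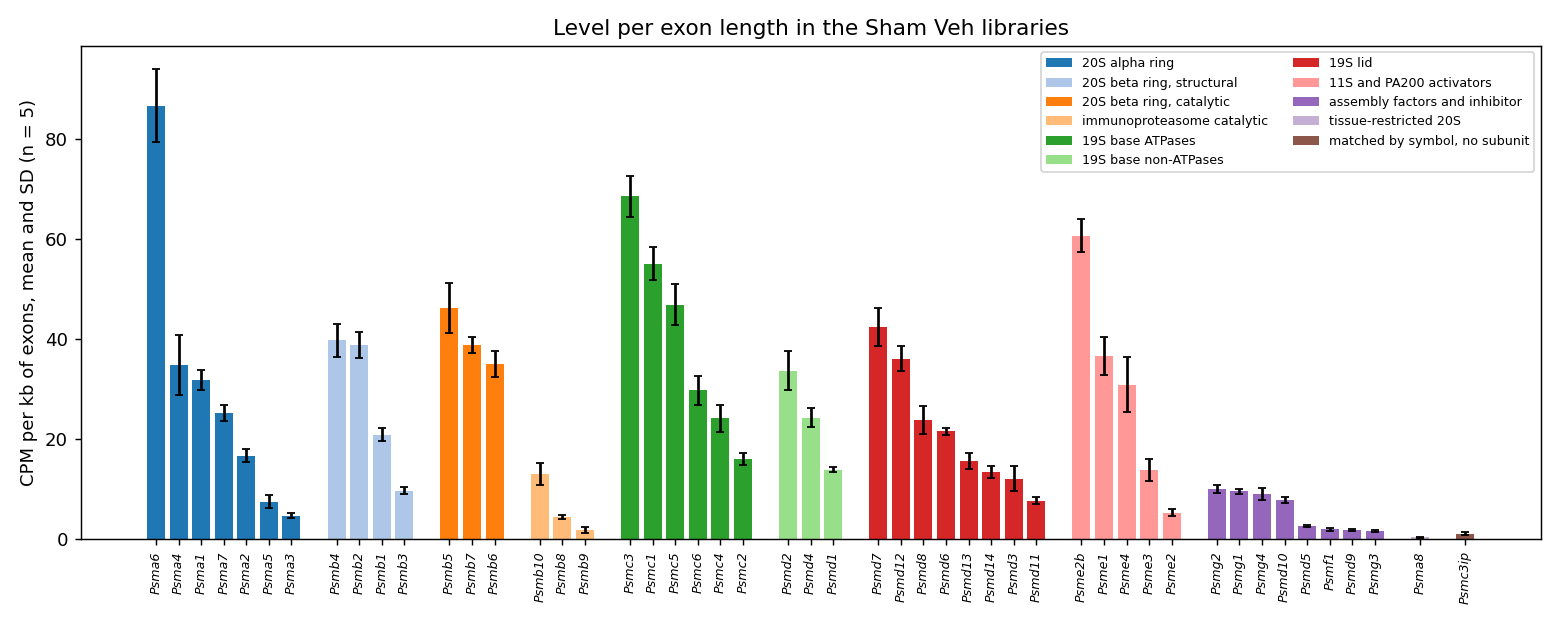
Level of each member in the Sham Veh libraries, in CPM per kb of annotated exon (bars, mean; error bars, SD; n = 5), ordered within each subunit group. Psma6 is the tallest bar at 86.7 CPM per kb, and the immunoproteasome genes Psmb10, Psmb8 and Psmb9 stand at 13.03, 4.31 and 1.78.

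Members varied less between replicates than the genes tested as a whole, which were not matched to them for level. The median residual SD within groups was 0.16 on the log2 scale for the 49 members, against 0.31 for all genes tested. Across the libraries of all groups, Psmd6, a lid subunit, was the steadiest, with its highest library 1.22 times its lowest, and Psmb7 came close at 1.27 times. The widest ranges among subunits were those of Psma8 (6.94 times), Psmb8 (5.49 times), Psmb9 (4.96 times) and Psmb10 (4.32 times), and among assembly factors that of Psmg3 (6.03 times). These ranges include differences between groups.

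**Figure D2:**
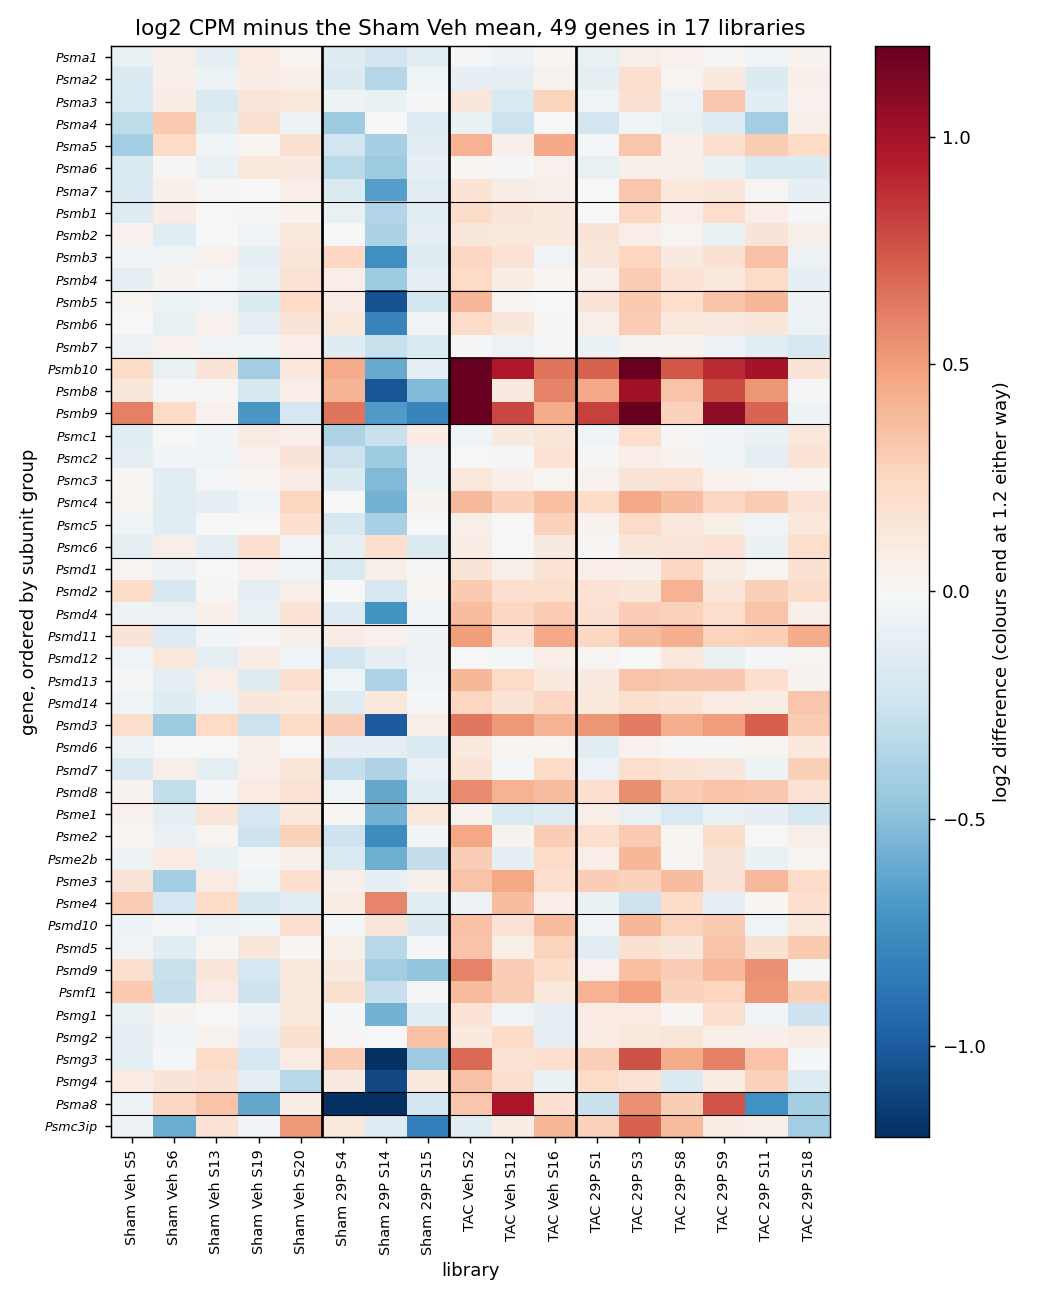
Each of the 49 members (rows, by subunit group) in each of the 17 libraries (columns), as log2 CPM minus the mean of the Sham Veh libraries (colours end at 1.2 either way). The rows of Psmb10, Psmb8 and Psmb9 hold the 5 cells furthest above the Sham Veh mean in TAC libraries, and Sham 29P library 14 is blue in most rows, with the lowest value of 31 members.

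On the deposited scale, the immunoproteasome subunit Psmb10 and the lid subunits Psmd11 and Psmd8 were the only members called in the Veh arm. Of these, Psmb10 alone was also called with TMM factors, given below. Of the 49 members, 3 were higher and 0 lower in TAC Veh than in Sham Veh (limma, adjusted p of 0.05 or less), while 22.5% of all genes tested were called higher and 1.91% lower. At an unadjusted p of 0.05, the threshold of the study, 14 were higher and 0 lower, against 37.4% and 3.48% of all genes. The median log2 fold change was 0.13 over the members and 0.35 over all genes, and 9 of 49 members lay above the median of all genes. Libraries of the groups did not overlap for 10 members, all higher in TAC Veh, against 27.6% of all genes higher and 2.23% lower.

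The scale set the direction of most of these values. With TMM factors, which centre the bulk of genes on each other, the median of all genes fell from 0.35 to 0.04 and that of the members from 0.13 to -0.17, and 13 of 49 members stayed above 0. On that scale Psmb10 was still called higher, Psmd11 (0.07) and Psmd8 (0.15) were not called, and Psme1 and Psmb7 were called lower; 4.50% of all genes were called higher and 4.95% lower. The mitochondrial share of the total was 23.6 to 27.9% in TAC Veh and 29.1 to 38.8% in Sham Veh libraries, and its part in this was not tested. Without TAC Veh library 2, 0 members were called by limma, against 2.68% of all genes called higher.

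Under 29P the same contrast called more members. Between TAC 29P and Sham 29P, 24 members were higher and 0 lower, against 31.4% and 1.12% of all genes, and at the unadjusted threshold 32 were higher and 0 lower, against 43.5% and 1.96%. The median log2 fold change was 0.29 over the members and 0.37 over all genes. Libraries did not overlap for 17 members, all higher in TAC 29P, against 25% of all genes higher and 1.08% lower. With TMM factors 0 members were called in either direction, against 6.14% and 4.57% of all genes, and the members' median was -0.05. Without Sham 29P library 14 no member was called on the deposited scale, against 6.45% of all genes called higher. With the run of label numbers as a covariate 0 members were called by limma, against 4.19% of all genes called higher. Each call of a member in the 29P arm given below is thus lost in that fit and in the one without library 14. Psmb10, Psmd11 and Psmd8 were called in both arms, which is 3 of 3 in the Veh arm and 3 of 24 in the 29P arm.

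**Figure D3:**
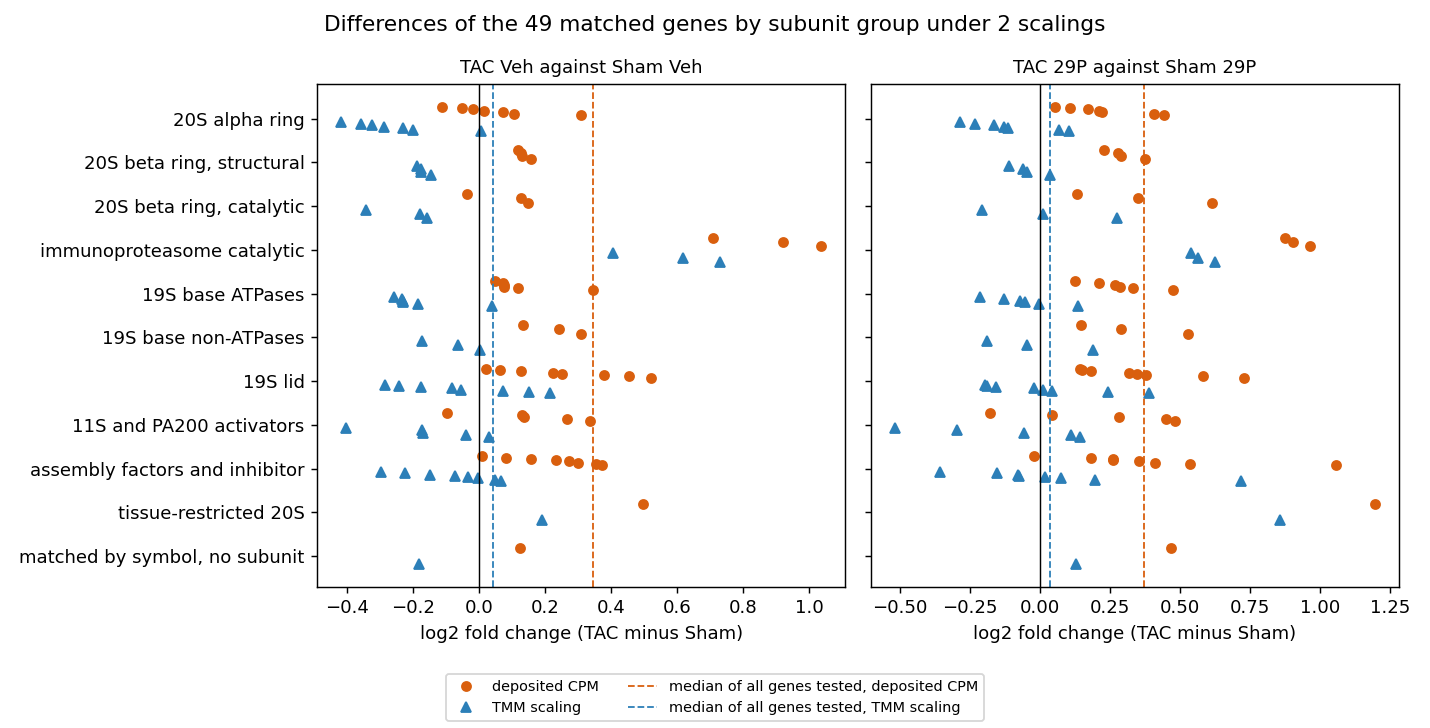
log2 fold change of each member (TAC minus Sham), by subunit group, in the Veh arm (left) and the 29P arm (right), on deposited CPM (circles) and with TMM factors (triangles); dashed lines mark the median of all genes tested on each scale. The 3 immunoproteasome catalytic genes lie to the right of both dashed lines in both panels, while with TMM factors 13 members in the Veh arm and 22 in the 29P arm lie above 0.

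Of the 14 core genes that are neither inducible nor tissue-restricted, 0 were called in the Veh arm by limma and 4 in the 29P arm, where 22.5% and 31.4% of all genes were called higher. In the Veh arm none of the 7 alpha ring genes passed the unadjusted threshold, and their log2 fold changes ran from -0.11 to 0.31 with a median of 0.02. The 4 structural beta genes (Psmb1 to Psmb4) lay between 0.12 and 0.16, and none passed. In the 29P arm 2 of 7 alpha genes (Psma5 and Psma7) and 1 of 4 structural beta genes (Psmb1) were called higher. Psma6, an alpha subunit, stood at 95.1, 107, 101, 116 and 115 CPM in Sham Veh, 85.2, 78.6 and 99.7 in Sham 29P, 108, 105 and 111 in TAC Veh, and 94.4 to 111 (median 101) in TAC 29P. Groups overlapped in each of its comparisons, and its log2 fold change was 0.02 in the Veh arm (exact permutation p = 0.857) and 0.22 in the 29P arm (exact permutation p = 0.0476).

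None of the constitutive catalytic subunits was called in the Veh arm on the deposited scale. Psmb5, the chymotrypsin-like site, stood at 42.2, 39.6, 40.2, 36.8 and 48.7 CPM in Sham Veh, 44.1, 20.1 and 35.5 in Sham 29P, 54.4, 42.3 and 41.5 in TAC Veh, and 39.7 to 54.4 (median 49.5) in TAC 29P. Library 14 of Sham 29P was the lowest of all, and the groups overlapped in both arms. The log2 fold change of Psmb5 was 0.15 ± 0.19 (SE) in the Veh arm (adjusted p = 0.572) and 0.61 ± 0.18 in the 29P arm (adjusted p = 0.0212; exact permutation p = 0.0238), or 0.29 without Sham library 14 (adjusted p = 0.198).

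Psmb6, the caspase-like site, stood at 65.1, 61.5, 67.7, 60.4 and 72.6 CPM in Sham Veh, 71.3, 37.8 and 63.5 in Sham 29P, 76.5, 71.7 and 65.9 in TAC Veh, and 62.2 to 80.5 (median 71.2) in TAC 29P. All groups overlapped, and neither arm was called (0.12 and 0.35). Psmb7, the trypsin-like site, stood at 126.4, 137, 129.7, 129.7 and 139.6 CPM in Sham Veh, 119.8, 109.9 and 116 in Sham 29P, 130.3, 126 and 130.4 in TAC Veh, and 116 to 136 (median 126) in TAC 29P. Its TAC Veh values lay inside the Sham Veh range but for library 12, just below it, and its log2 fold change was -0.04 (adjusted p = 0.733); with TMM factors it became -0.34 (adjusted p = 0.0330).

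The immunoproteasome genes had the highest median log2 fold change of the groups with more than 1 gene, 0.92 in the Veh arm and 0.90 in the 29P arm. In these arms 1 and 3 of the 3 were called, against 22.5% and 31.4% of all genes called higher. Psmb10, the inducible trypsin-like subunit, stood at 25.6, 20.6, 24.5, 16.4 and 23.9 CPM in Sham Veh and at 62.4, 42.6 and 34.2 in TAC Veh, without overlap. Its log2 fold change was 1.04 ± 0.25 (2.05-fold, adjusted p = 0.0103; exact permutation p = 0.0179, the smallest possible), and 0.73 with TMM factors (adjusted p = 0.0363). Within runs of label numbers the difference was 2.71-fold (library 2 against 5 and 6) and 1.74-fold (library 12 against 13). In the 29P arm, within the 1 run that holds both groups, it was 1.39-fold (5 libraries against library 4). Without TAC Veh library 2 it was 0.80 on the log2 scale (adjusted p = 0.0923), and over 31 alternatives the adjusted p ran from 0.00538 to 0.0923. Under 29P it stood at 29.8, 14.4 and 20.4 CPM in Sham and 24.4 to 51.3 (median 38.8) in TAC, with TAC library 18 inside the Sham range. The log2 fold change there was 0.88 ± 0.24 (adjusted p = 0.0157; exact permutation p = 0.0238), and 0.62 without Sham library 14 (adjusted p = 0.131) and 0.54 with TMM factors (adjusted p = 0.0941).

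Psmb8, the inducible chymotrypsin-like subunit, stood at 15.9, 14.3, 14.6, 12.7 and 15.4 CPM in Sham Veh and at 39.1, 15.7 and 21.9 in TAC Veh. TAC Veh library 12 lay within the Sham Veh range. Its log2 fold change was 0.71 ± 0.30 (p = 0.0279, adjusted p = 0.0831; exact permutation p = 0.0357), and without library 2 it was 0.35 (adjusted p = 0.451). Within runs the difference was 2.59-fold and 1.07-fold in the Veh arm and 1.17-fold in the 29P arm. Under 29P it stood at 19.2, 7.12 and 10.1 CPM in Sham and 14.3 to 29.4 (median 20.47) in TAC, and was called higher (0.90 ± 0.29, adjusted p = 0.0269), but not without Sham library 14 (0.58, adjusted p = 0.210).

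Psmb9, the inducible subunit that replaces Psmb6, stood at 9.46, 7.34, 6.46, 3.84 and 5.41 CPM in Sham Veh and at 17.8, 10.9 and 8.48 in TAC Veh, with 1 TAC library within the Sham range. Its log2 fold change was 0.92 ± 0.37 (p = 0.0218, adjusted p = 0.0707; exact permutation p = 0.0536). Within runs the difference was 2.13-fold and 1.68-fold in the Veh arm and 1.14-fold in the 29P arm. Under 29P it stood at 9.68, 3.88 and 3.58 CPM in Sham and 5.98 to 15.2 (median 10.5) in TAC, and its log2 fold change was 0.96 ± 0.35 (adjusted p = 0.0462), or 0.76 without Sham library 14 (adjusted p = 0.223). With TMM factors neither Psmb8 nor Psmb9 was called in either arm, and their values ran from 0.40 to 0.63.

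**Figure D4:**
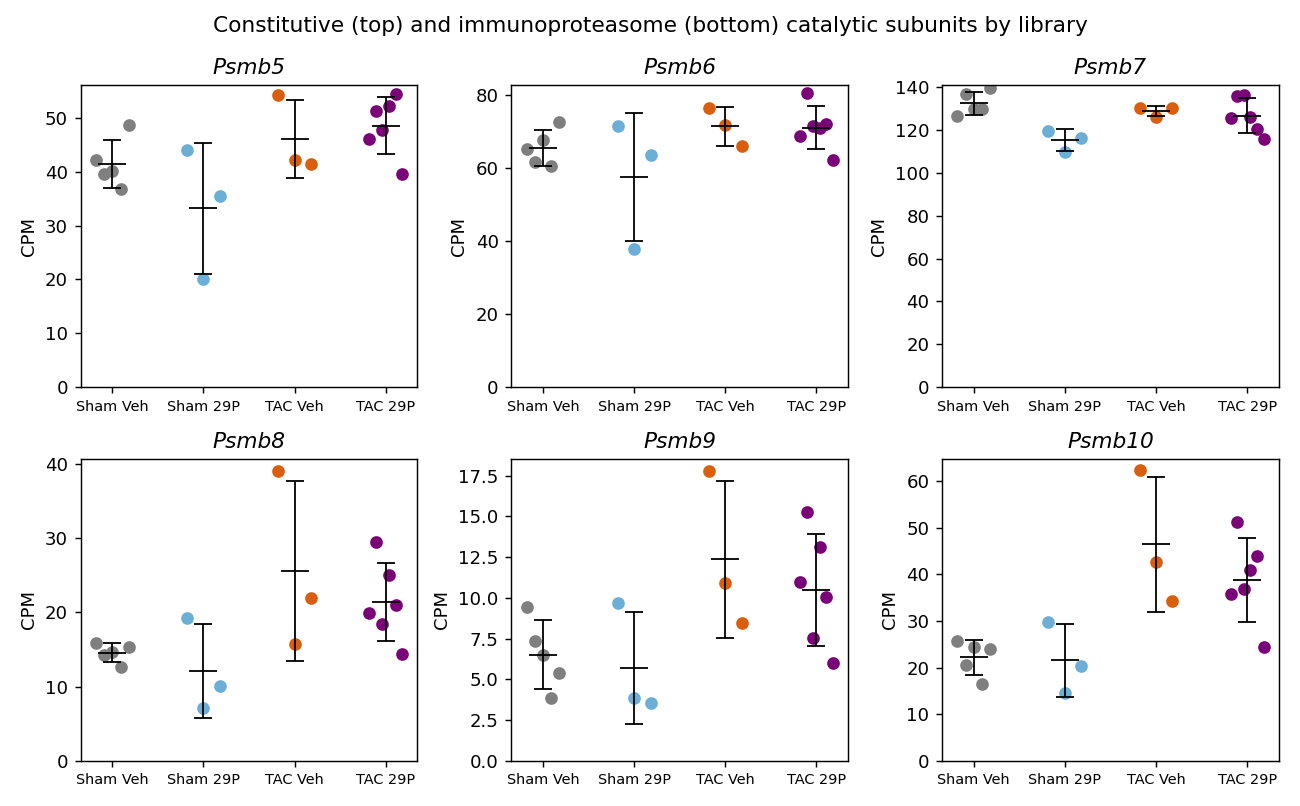
CPM of the constitutive catalytic subunits (top) and the immunoproteasome subunits that replace them (bottom) in each library (points) of the 4 groups, with mean and SD (black). The TAC Veh points of Psmb10 (34.2 to 62.4 CPM) lie above all Sham Veh points (16.4 to 25.6), whereas those of Psmb7 (126 to 130.4) lie among or just below them.

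Ratios within a library do not depend on its scaling. Per kb of exon, Psmb10 amounted to 33.7 ± 6.07% of Psmb7 (SD over the libraries of a group) for Sham Veh, 37.2 ± 11.9% for Sham 29P, 72.2 ± 22.0% for TAC Veh and 61.2 ± 12.6% for TAC 29P. The ratio was 2.11-fold higher in TAC Veh than in Sham Veh, with no overlap (exact permutation p = 0.0179, the smallest possible; adjusted p = 0.143 over 12 ratio tests), and 1.67-fold higher in the 29P arm (exact permutation p = 0.0238, adjusted p = 0.143). Psmb8 was 9.38 ± 0.634% of Psmb5 in Sham Veh and 14.3 ± 4.62% in TAC Veh, 1.48-fold higher (exact permutation p = 0.0357, adjusted p = 0.143). Psmb9 was 5.10 ± 1.70% of Psmb6 in Sham Veh and 8.74 ± 2.78% in TAC Veh, 1.74-fold higher (exact permutation p = 0.0714, adjusted p = 0.214). No ratio passed after adjustment of the permutation p-values. With the run of label numbers as a covariate in limma, all 3 ratios were higher in TAC Veh and none in the 29P arm. The limma adjusted p in TAC Veh was 0.000326 for Psmb10 to Psmb7, 0.00292 for Psmb9 to Psmb6 and 0.0321 for Psmb8 to Psmb5. That fit pooled the spread of the 3 ratios, which come from the same libraries and are not independent. Its p-values thus count the same libraries more than once and carry less weight than the permutation p-values.

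**Figure D5:**
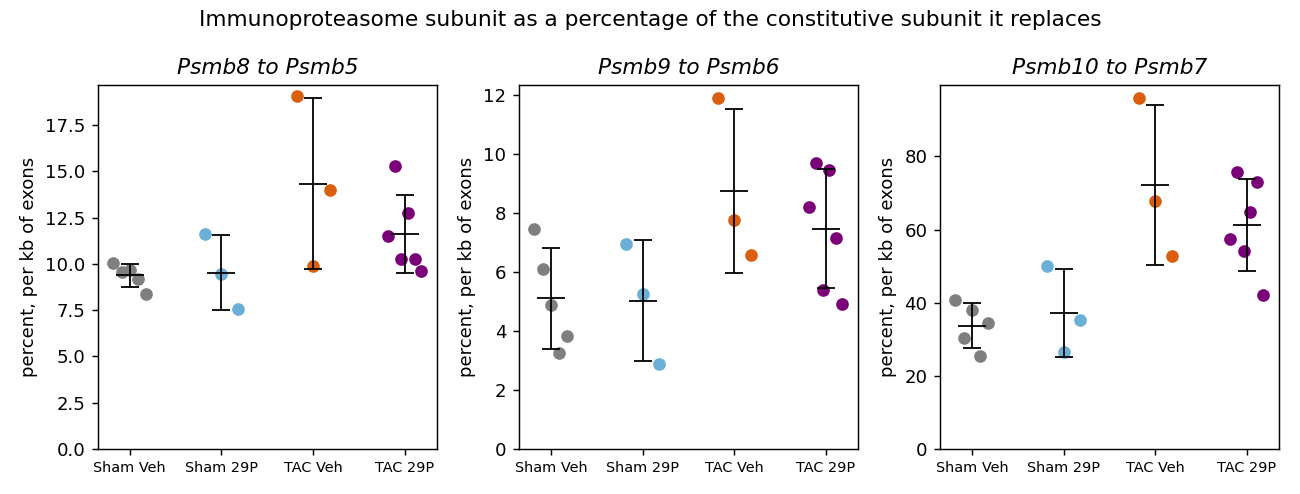
Each immunoproteasome subunit as a percentage of the constitutive subunit it replaces, both per kb of exon, in each library (points) of the 4 groups, with mean and SD (black). Psmb10 rises from 33.7% of Psmb7 in Sham Veh to 72.2% in TAC Veh on average, and Psmb9 stays below 12% of Psmb6 in every library.

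Other genes of the class I pathway moved in the same libraries. Of the 11 genes listed for interferon signalling and class I loading, 8 were called higher in TAC Veh and 7 in TAC 29P, and none lower. The shares of all genes called higher were 22.5% and 31.4%. In the Veh arm these included Irf8, a myeloid transcription factor (1.10, adjusted p = 0.00684), and Nlrc5, the class I transactivator (1.12, adjusted p = 0.00890). In the 29P arm they included Irf8 (1.15, adjusted p = 0.00406) and H2-D1, a class I heavy chain (0.83, adjusted p = 0.0271). Irf1, another interferon-regulated transcription factor, was called in the 29P arm (0.56, adjusted p = 0.0365). With TMM factors Irf8 and Nlrc5 were called in the Veh arm and Irf8 in the 29P arm. Library 2 of TAC Veh held the highest values of the 17 for Psmb8, Psmb9, Psmb10, Tap1, H2-K1, Ptprc and Laptm5, and TAC 29P library 3 the second highest for all of these but Ptprc. This order did not hold for every gene in the class I and leukocyte lists. Tyrobp, Cd52 and Cd79a were highest in TAC 29P library 3 rather than library 2. Library 3 was not the second highest for B2m, Irf1 or Csf1r.

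Leukocyte markers rose as well. Of the 10 listed, 9 were tested; 8 were called higher in each arm, among them Adgre1, a macrophage receptor (1.15, adjusted p = 0.00684), Ptprc, the pan-leukocyte CD45 (0.99, adjusted p = 0.00723), and Laptm5 (1.25). Under 29P, Cd68 (1.24, adjusted p = 0.00251) and Laptm5 (1.45, adjusted p = 0.00376) were among them. With TMM factors 3 and 6 of the 9 were called higher, against 4.50% and 6.14% of all genes. Their summed level was 69.7 to 102 CPM in Sham Veh, 55.4 to 121 in Sham 29P, 141 to 235 in TAC Veh and 147 to 198 in TAC 29P. The immunoproteasome genes summed to 32.9 to 51.0, 25.4 to 58.8, 64.6 to 119 and 44.7 to 95.9 CPM in the same order. The T cell marker Cd3e was at most 0.748 CPM in every library. Fibroblast markers were called higher for 4 and 6 of 6, endothelial markers for 2 and 4 of 5, and red cell markers for 4 and 0 of 4 in the Veh and 29P arms, where 22.5% and 31.4% of all genes were. Of 8 cardiomyocyte markers, 6 had negative values in each arm. Tnni3 was called lower in the Veh arm, and Pln lower and Actc1 higher in the 29P arm, and with TMM factors 4 and 3 were called lower. The part of these cells in the immunoproteasome values was not tested.

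The 19S regulatory particle gave the other calls of the Veh arm. Of 8 lid genes, 2 were called in the Veh arm, a share close to the 22.5% of all genes called higher there, and 5 in the 29P arm, where that share was 31.4%. Psmd11, a scaffold of the lid, stood at 54.2, 43.6, 47.5, 47.8 and 51.0 CPM in Sham Veh and 69.1, 54.9 and 66.6 in TAC Veh. It stood at 51.9, 50.5 and 46.6 CPM in Sham 29P and 57.7 to 66.5 (median 61.5) in TAC 29P, so groups did not overlap in either arm. Its log2 fold changes were 0.38 ± 0.10 (adjusted p = 0.0160) and 0.32 ± 0.10 (adjusted p = 0.0237), the exact permutation p was 0.0179 and 0.0119, the smallest possible in each, and with TMM factors the values were 0.07 and -0.02.

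Psmd8, another lid subunit, stood at 74.6, 59.2, 71.3, 77.4 and 81.5 CPM in Sham Veh and 108, 96.8 and 93.7 in TAC Veh. It stood at 69.7, 47.2 and 66.0 CPM in Sham 29P and 81.4 to 106 (median 89.9) in TAC 29P, again without overlap in either arm. Its log2 fold changes were 0.45 ± 0.13 (adjusted p = 0.0225) and 0.58 ± 0.13 (adjusted p = 0.00574), and 0.15 and 0.25 with TMM factors, not called. Without Sham library 14 the value in the 29P arm was 0.41 (adjusted p = 0.0537), and that of Psmd11 was 0.33 (adjusted p = 0.0767).

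In the base, none of the 6 ATPase genes was called in the Veh arm and 4 were in the 29P arm (Psmc2, Psmc3, Psmc4 and Psmc5). Of the 3 other base genes, 0 and 2 were called, where 22.5% and 31.4% of all genes were called higher. Psmc4, an ATPase, stood at 53.1, 47.6, 48.0, 50.1 and 61.9 CPM in Sham Veh, 51.8, 35.0 and 53.3 in Sham 29P, 68.0, 62.9 and 66.7 in TAC Veh, and 58.6 to 71.8 (median 63.0) in TAC 29P. Groups did not overlap in either arm, with log2 fold changes of 0.34 ± 0.13 (adjusted p = 0.0588) and 0.47 ± 0.13 (adjusted p = 0.0130). Psmd4, which holds ubiquitin chains, stood at 64.9, 64.9, 70.8, 63.7 and 76.1 CPM in Sham Veh, 61.1, 41.3 and 66.6 in Sham 29P, 87.7, 80.9 and 83.9 in TAC Veh, and 70.7 to 86.1 (median 80.6) in TAC 29P. It did not overlap in either arm, with log2 fold changes of 0.31 ± 0.13 (adjusted p = 0.0789) and 0.53 ± 0.12 (adjusted p = 0.00752). Without Sham library 14 the values in the 29P arm fell to 0.28 for Psmc4 (adjusted p = 0.115) and 0.32 for Psmd4 (adjusted p = 0.0601).

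The activators did not follow the immunoproteasome genes as a group. Psme1, an interferon-inducible 11S subunit, stood at 83.3, 74.2, 88.9, 69.8 and 87.4 CPM in Sham Veh, 81.6, 54.2 and 87.7 in Sham 29P, 83.0, 70.8 and 72.0 in TAC Veh, and 69.4 to 84.8 (median 75.3) in TAC 29P. All groups overlapped, and its log2 fold change was -0.10 ± 0.14 in the Veh arm (adjusted p = 0.599) and 0.04 in the 29P arm. With TMM factors it was -0.40 in the Veh arm and called lower (adjusted p = 0.0257).

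Psme2, its partner, stood at 7.68 to 10.998 CPM in Sham Veh and 9.36 to 12.5 in TAC Veh, and at 5.40 to 8.89 in Sham 29P and 9.05 to 11.3 (median 9.998) in TAC 29P; it was called in the 29P arm alone (0.48 ± 0.16, adjusted p = 0.0313), and the difference between the arms is given below. Psme2b, its copy, stood at 48.0 to 54.2 CPM in Sham Veh, 33.8 to 45.0 in Sham 29P, 46.8 to 62.0 in TAC Veh and 47.9 to 66.7 (median 52.9) in TAC 29P, and was also called in the 29P arm (0.45, adjusted p = 0.0138). Without Sham library 14 these values were 0.28 for Psme2 (adjusted p = 0.243) and 0.33 for Psme2b (adjusted p = 0.108).

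Psme3, the nuclear 11S activator, stood at 44.9, 30.3, 43.3, 39.0 and 46.4 CPM in Sham Veh and 51.1, 55.7 and 46.4 in TAC Veh (log2 fold change 0.34 ± 0.12, adjusted p = 0.0550), and at 37.8 to 42.0 in Sham 29P and 45.1 to 52.7 (median 49.3) in TAC 29P (0.28, adjusted p = 0.0765). Psme4 had the highest CPM of all members, 220.5 to 315 in Sham Veh, 233 to 384 in Sham 29P, 245 to 329 in TAC Veh and 216 to 298 (median 249.9) in TAC 29P. Its values overlapped in both arms (0.13 and -0.18), and Sham 29P library 14 held its highest value, unlike most members.

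Of the 8 assembly factor and inhibitor genes, none was called in the Veh arm, and Psmd9, Psmf1 and Psmg3 were in the 29P arm. The shares of all genes called higher were 22.5% and 31.4%. Psma8 was called in the 29P arm (1.195 on the log2 scale, adjusted p = 0.0407), at no more than 1.47 CPM in any library, and stood at 0.86 without Sham library 14 (adjusted p = 0.223). Psmc3ip was not called in either arm.

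Genes around the proteasome that the symbol rule does not match were read by list. Their calls stand beside 22.5% and 31.4% of all genes called higher in the Veh and 29P arms. The 14 partner genes had median log2 fold changes of 0.11 and 0.08 in these arms. Of 14 partner genes, Ubqln4, a shuttle for ubiquitinated proteins, was called higher in both arms (0.37, adjusted p = 0.0460, and 0.45, adjusted p = 0.0172) and no other, and none lower; the proteasome receptor Adrm1 followed at 0.56 under 29P (adjusted p = 0.0579). Nfe2l1, the Nrf1 gene, was called in both arms (0.51, adjusted p = 0.0206, and 0.43, adjusted p = 0.0306), Keap1 was called in the 29P arm (0.44, adjusted p = 0.0354), Ddi2, the protease that frees Nrf1, stood at 0.42 in the Veh arm (adjusted p = 0.0727), and Nfe2l2, the Nrf2 gene, at 0.16 and 0.01. Of 6 ubiquitin and E1 genes, none was called in the Veh arm, where Uba1, the main ubiquitin-activating enzyme, led (0.35, adjusted p = 0.0848), and Ubb and Uba1 were among those called in the 29P arm (0.61 and 0.39).

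Muscle ubiquitin ligases were called higher for 3 of 10 in the Veh arm and 2 of 10 in the 29P arm, where 22.5% and 31.4% of all genes were. Fbxo40 was called in both (0.67, adjusted p = 0.00565, and 0.54, adjusted p = 0.0110), Cbl and Nedd4 in the Veh arm (0.71 and 0.42) and Stub1, the co-chaperone ligase CHIP, in the 29P arm (0.44). The atrophy ligases Fbxo32 (0.40 and -0.09) and Trim63 (0.16 and 0.20) were not called in either arm, nor were Trim54 (0.28 and 0.32), Trim55 (0.19 and 0.15), Mdm2 (0.25 and 0.10) and Fbxo30 (0.22 and 0.00). With TMM factors none of the partner, Nrf1, ubiquitin or ligase genes was called in either arm.

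No member was called for 29P within TAC. Between TAC 29P and TAC Veh 0 of 49 members were called by limma, as were 0% of all genes in either direction, and 0 passed the unadjusted threshold, against 1.05% of all genes higher and 0.931% lower. Fold changes ran from -0.46 (Psma8) to 0.11 (Psmf1) on the log2 scale, all 49 of the 95% intervals included 0, and their median width was 0.52. The intervals were wider for the inducible genes: Psmb10 was -0.25 (-0.76 to 0.26), Psmb8 was -0.19 (-0.79 to 0.41) and Psmb9 was -0.24 (-0.98 to 0.51). For Psmb7 the interval was -0.19 to 0.13. No ratio differed by permutation, the smallest raw value being that of Psmb8 to Psmb5 (0.829-fold, exact permutation p = 0.298, adjusted p = 0.510). With the run of label numbers as covariate in limma, the ratio of Psmb9 to Psmb6 was lower in TAC 29P (log2 difference -0.59, adjusted p = 0.0383). That fit pooled the ratios as described above. The only run that holds both groups has 5 TAC 29P libraries and TAC Veh library 2 alone. Without library 2, and without the covariate, the log2 difference was 0.0155, so the lower ratio is not shown beyond that library.

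In Sham hearts most members had lower values under 29P, and none was called. Between Sham 29P and Sham Veh 0 members were called by limma, against 0% of all genes higher and 0.00617% lower. At the unadjusted threshold 0 members were higher and 10 lower, against 1.60% and 5.89% of all genes, and without library 14 there were 0 and 0. The median log2 fold change was -0.19 over the members and -0.06 over all genes, with 4 of 49 members above 0. Without library 14 these medians were -0.09 and 0.04, with 13 of 49 members above 0. The smallest p-values were those of Psma6 (-0.29, p = 0.00971, adjusted p = 0.651; exact permutation p = 0.0536), Psme2b (-0.35, p = 0.0120; exact permutation p = 0.0179) and Psma7 (-0.32, p = 0.0155; exact permutation p = 0.0357). Psma7, an alpha subunit, stood at 69.1, 80.8, 77.8, 77.5 and 81.5 CPM in Sham Veh and 68.7, 48.8 and 70.3 in Sham 29P. These groups overlapped, and library 14 was the lowest. The libraries did not overlap for Psma1, Psmb7, Psmd6 and Psme2b, 4 of 49 members, all lower in Sham 29P, against 0.629% of all genes higher and 1.51% lower.

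The effect of TAC did not differ detectably between the arms. In the limma interaction of surgery and 29P 0 members were called, against 0.00617% of all genes higher and 0% lower, and 0 passed the unadjusted threshold, against 1.98% and 0.863%. The smallest limma p was that of Psmc3 (0.26 on the log2 scale, Benjamini-Hochberg adjusted p = 0.998). All 49 of the 95% intervals included 0, and their median width was 0.74 on the log2 scale. A member called in 1 arm and not in the other, such as Psmb8, Psme2 or Psmb5, is therefore not shown to respond differently.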

How the data were processed

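Reads were aligned by the authors in Partek Flow (STAR 2.3.7, genome mm10), per the submitters' processing notes and the study's methods. The deposited table holds CPM with 0.0001 added for 17 libraries, and 3 further library numbers are absent from it. The study states that it removed libraries with few reads and a Veh TAC library that clustered with Sham samples. The counting tool and strand setting are not given in the sources used here. Depth was estimated from the step between low values, which at most 82.1% of values per library matched within 0.02 of a step, so counts were not recovered. limma 3.58.1 (R 4.3.3; 1 mean per group, variance trend) was run on log2 CPM of the 16218 genes past the filter, with Benjamini-Hochberg adjustment over all of them. edgeR needs counts and was not run. Fold changes with TMM factors, recomputed from the deposited values (log ratios trimmed by 30%, mean levels by 5%), stand beside them. Exact tests were two-sided permutations of library labels, which cannot go below 0.0179 for 3 against 5 and 0.0119 for 6 against 3. The code was tested on simulated data. Fully described members were the catalytic and activator genes and, per comparison, the 3 with the smallest p in each direction. Members and lists were chosen with earlier results of these data known. P-values measure the spread between these libraries. Alternatives were other scalings, added constants, filters and thresholds, the groups compared alone, the run of label numbers as covariate, no variance trend, and each library left out. Results for some listed genes are not reported here.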

Additional observations from a re-analysis of the deposited data

Results flagged for a closer look

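Psmd10, an assembly chaperone of the 19S base, stood at 13.04 CPM in Sham Veh library 20, while the other 4 Sham Veh libraries held 10.7 to 11.2 CPM. It was singled out because the gap to the nearest library took 0.806 of the group's whole range, and it was the 1 case among 104 groups of 5 or 6 libraries examined (49 genes and 3 ratios in 2 groups each), where chance gives about 1 in 20.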

How the results depend on the processing

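On the Veh arm's 3 higher members, TMM, median-of-ratios and totals without mitochondrial and haemoglobin genes each left 1 (Psmb10), the run covariate gave 5 and the unadjusted threshold 14; leaving out single libraries of these groups gave 0 to 6, with 0 without TAC Veh library 2, 5 without Sham Veh library 20 and 6 without Sham Veh library 5, and leaving out Sham 29P library 14, which shares the variance estimate, gave 7. Lower members were 2 with TMM and with median-of-ratios. On the 29P arm's 24 higher members, TMM, median-of-ratios and the run covariate gave 0, totals without mitochondrial and haemoglobin genes 3, and leaving out single libraries 0 to 25, with 0 without Sham 29P library 14 and 15 without TAC 29P library 3; median-of-ratios called 1 lower. The cause was not tested. The share of all genes called higher moved with the setting too. In the Veh arm it was 22.5%, 4.50% with TMM, 2.68% without TAC Veh library 2 and 37.4% at the unadjusted threshold. In the 29P arm it was 31.4%, 6.14% with TMM, 4.19% with the run covariate and 6.45% without Sham 29P library 14. That share is not given here for the other settings, so those counts are not read as results about the members. For 29P within Sham, 10 were lower at the unadjusted threshold, against 5.89% of all genes.

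Alternatives chosen after seeing the data left out libraries 18, 19 and 20 (atrial transcripts) and Sham 29P library 14. Without all 4, 7 members were higher in the Veh arm and 3 in the 29P arm, and with TMM factors as well 1 was higher and 1 lower, and 0 higher. With TMM factors and without library 14 alone, the Veh arm had 1 higher and 3 lower, the 29P arm 0 higher and 1 lower (Psme1, -0.43), and Psma7 turned to -0.0217. The share of all genes called is not given here for these settings, so the counts are not read as results about the members. Psmd11 in the 29P arm turned to -0.0209 with TMM and -0.0422 with median-of-ratios factors.

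Ratio tests that missed the threshold passed in limma with the run covariate for Psmb8 to Psmb5 (0.64), Psmb9 to Psmb6 (0.87) and Psmb10 to Psmb7 (1.11) in the Veh arm. The same held for Psmb9 to Psmb6 in TAC 29P against TAC Veh (-0.59). That limma fit pooled the spread of ratios that share their libraries, so passing there carries less weight. Uncalled ratios changed sign when single libraries were left out: in Sham 29P against Sham Veh between -0.15 and 0.16, -0.33 and 0.31, and -0.13 and 0.33, and in TAC 29P against TAC Veh between -0.41 and 0.0155 for Psmb9 to Psmb6 and between -0.43 and 0.00787 for Psmb10 to Psmb7. In the Sham comparison Psmb9 to Psmb6 was also 0.00179 with 1 added and 0.0311 with the run covariate, and Psmb8 to Psmb5 was -0.0624 without the 4 libraries. Of the values for the fully described members alone, over all comparisons and alternatives, 1748 kept direction and side of the threshold. Another 108 lost and 20 gained a call, 160 changed sign while uncalled, and 4 reversed. In comparisons where no member was called, keeping the side means staying uncalled, so the 1748 do not measure how stable the calls are. The labels name no pairs of animals, so no paired analysis was run. The runs of label numbers entered as a covariate and in the within-run values.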
